A study of Mus musculus with 7 samples.

Results

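The genes described here are 10 genes of the cyclic AMP (cAMP) pathway that holds mouse oocytes in meiotic arrest, taken by name from a table of 37620 genes. They are the receptors Gpr3 and Gpr12, the adenylyl cyclases Adcy3 and Adcy9, the phosphodiesterase Pde3a, the protein kinase A (PKA) genes Prkar1a, Prkar2a, Prkaca and Prkacb, and the anchoring protein Akap1. RNA was measured in 7 mouse MII oocytes (arrested again, at the second meiotic metaphase), each sequenced as a library of its own. The 4 KO oocytes were Hiraf/f with Zp3-Cre, and the 3 WT oocytes were Hiraf/f without Cre, so all 7 carried the floxed Hira alleles. Zp3 drives Cre in growing oocytes, and Hira encodes a chaperone of the histone variant H3.3. The labels give no animal, strain or age, and a further WT oocyte that the series' text counts was not analysed here. Since each library is 1 cell and no animal is named, each genotype counts as 1 sample. No test of the genotype is given, and a mean ± SD describes the spread between oocytes (n = 4 KO and n = 3 WT throughout).

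In a follicle, the oocyte makes its own cAMP. GPR3 and GPR12 are receptors that signal through Gs without a known added ligand, adenylyl cyclases then make cAMP, and PDE3A breaks it down. cAMP frees the catalytic subunits of PKA from the regulatory subunits, and active PKA keeps CDK1 off through WEE and CDC25 proteins. When luteinizing hormone acts on the follicle, cGMP from the surrounding cells falls, PDE3A is released, cAMP drops and meiosis resumes. An MII oocyte is already past this prophase arrest, so the values below are the transcripts left, stored or degraded after it.

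Levels are FPKM, which scales the fragments of a gene by its length and by the reads of the library. Reads recovered from the table came to 15887904 to 25940519 per KO oocyte and 15340782 to 20077129 per WT oocyte. Hira was at 0.0784 ± 0.0362 FPKM in KO and 0.317 ± 0.0280 FPKM in WT oocytes, with every KO oocyte below every WT oocyte. Of 12 oocyte markers, all were above the expression filter described below, 5 of them over 1.5-fold lower in KO (7.92% of all genes above the filter were). The summed level of the 12 was 9351 to 11706 FPKM in KO and 15587 to 16742 FPKM in WT oocytes, mostly from Dppa3, Oosp1 and Gdf9. The markers did not all go one way, since Mos, Ooep and Kit had higher means in KO oocytes. Of 24 cumulus and granulosa markers, which would show other follicle cells, 11 were listed at 0 in every oocyte, among them Foxl2, Amh, Lhcgr and Gja1. The summed level of the 24 was 13.4 to 17.1 FPKM in KO and 4.84 to 7.34 FPKM in WT oocytes, mostly from Nr5a2, Kitl and Fshr. Their part in the results was not tested.

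The receptors were the genes of the 10 that stood lower in KO oocytes, and their promoters are shown for that reason, with that of Prkar1a, which holds a full cAMP response element (CRE). RefSeq windows on GRCm38.p6, from 250 bases before to 50 after a start, were at hand for 9 of the 10 genes, 21 windows in all. Capitals mark the CRE (TGACGTCA), its core (TGACG, or CGTCA on the other strand, which also lies within the CRE) and the element of the oocyte factor NOBOX (TAATTG, or CAATTA on the other strand). The windows are chr4:133212487-133212786 (minus strand) for Gpr3, chr5:146585190-146585489 and chr5:146584355-146584654 (minus strand) for the starts of Gpr12, and chr11:109650699-109650998 (plus strand) for Prkar1a.
Gpr3: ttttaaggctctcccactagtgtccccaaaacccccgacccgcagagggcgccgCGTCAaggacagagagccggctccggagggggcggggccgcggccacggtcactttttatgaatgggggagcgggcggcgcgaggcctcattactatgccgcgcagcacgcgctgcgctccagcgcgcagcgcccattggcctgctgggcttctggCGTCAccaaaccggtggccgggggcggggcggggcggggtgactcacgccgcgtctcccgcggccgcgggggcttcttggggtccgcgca
Gpr12, upstream start: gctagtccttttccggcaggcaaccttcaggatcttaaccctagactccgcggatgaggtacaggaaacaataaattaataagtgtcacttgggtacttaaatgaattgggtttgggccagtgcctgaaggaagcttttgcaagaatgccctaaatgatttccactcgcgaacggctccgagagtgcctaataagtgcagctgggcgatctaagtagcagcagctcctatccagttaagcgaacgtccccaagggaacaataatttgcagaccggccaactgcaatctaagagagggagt
Gpr12, downstream start: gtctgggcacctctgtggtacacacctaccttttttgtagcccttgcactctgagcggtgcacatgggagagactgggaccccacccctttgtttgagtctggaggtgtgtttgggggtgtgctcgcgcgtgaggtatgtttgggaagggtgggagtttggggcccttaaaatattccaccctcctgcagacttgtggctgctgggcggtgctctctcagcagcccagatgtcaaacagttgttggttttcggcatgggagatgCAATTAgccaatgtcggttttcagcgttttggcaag
Prkar1a: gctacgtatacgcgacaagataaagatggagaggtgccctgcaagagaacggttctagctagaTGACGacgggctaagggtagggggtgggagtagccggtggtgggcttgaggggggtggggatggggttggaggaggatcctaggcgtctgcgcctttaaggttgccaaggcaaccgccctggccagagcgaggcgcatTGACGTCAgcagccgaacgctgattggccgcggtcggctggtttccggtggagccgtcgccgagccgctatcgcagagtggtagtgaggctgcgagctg

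The receptor promoters differed in base composition. The Gpr3 window held 38 CpG dinucleotides and the Gpr12 windows 11 and 8, against a median of 7 over all 32851 windows in the table. The CRE was in 1.79% of all windows, and among the 10 genes it was found for Prkar1a alone, in 2 overlapping windows. The CRE core was in 20.8% of all windows and in 8 of the 21 windows of these genes, with 2 matches in that of Gpr3. The NOBOX element was in 8% of all windows and in the downstream window of Gpr12. These are matches of letters and not shown to be sites of binding.

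Gpr3 (ENSMUSG00000049649), the receptor whose loss in mice lets oocytes resume meiosis early, was lower in every KO oocyte than in any WT oocyte. It was at 2.19, 1.73, 0.421 and 1.46 FPKM in KO1 to KO4, against 4.45, 2.21 and 4.31 FPKM in WT1, WT2 and WT4. The groups came close to touching, since KO1 and WT2 were nearly level, and KO3 lay lowest. The means were 1.45 ± 0.748 FPKM in KO and 3.66 ± 1.25 FPKM in WT oocytes, 2.52-fold apart. On the log2(FPKM + 1) scale, the KO mean minus the WT mean was -0.95. These levels rest on 541 reads in KO and 895 reads in WT oocytes, so per read of library WT stood 2.65 times as high (exact 95% interval 2.38 to 2.95, covering counting error only).

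Gpr12 (ENSMUSG00000041468), the close relative of Gpr3 that is the main such receptor in rat oocytes, was nearly absent from KO libraries. It was listed at 0 in KO1, KO2 and KO4 and at 0.0518 FPKM in KO3, against 0.438, 1.62 and 0.468 FPKM in WT1, WT2 and WT4. A count of 0 allows up to 3 reads, which is 0.0629, 0.0511 and 0.0470 FPKM in KO1, KO2 and KO4, so even these limits lay below every WT value. WT2, the WT oocyte lowest in Gpr3, was the highest in Gpr12. The sums were 4 reads in KO, all in KO3, and 139 reads in WT oocytes, so per read of library WT stood 55.6 times as high (exact 95% interval 21.3 to 207). On the log2(FPKM + 1) scale the difference was -0.80 and without WT2 it was -0.52, within 1.5-fold. The third member of this receptor family, Gpr6, was listed at 0 in all 7 oocytes.

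A neighbour of Gpr3 on the opposite strand was lower in KO oocytes as well. In the GENCODE M21 annotation, Cd164l2 starts head to head with Gpr3, and its exons cover 7.46% of the exonic bases of Gpr3. Cd164l2, chosen after its values were seen, was at 36.5, 42.1, 38.8 and 25.1 FPKM in KO1 to KO4, against 98.5, 84.1 and 138 FPKM in WT1, WT2 and WT4. It was thus far more abundant than Gpr3 and also lower in every KO oocyte, with means of 35.6 ± 7.38 FPKM in KO and 107 ± 27.8 FPKM in WT oocytes. Gpr3 stood at 1.09% to 5.99% of the Cd164l2 level in KO and at 2.63% to 4.52% in WT oocytes, and these ranges overlapped. Among KO oocytes KO3 was lowest in Gpr3 and KO4 in Cd164l2. Among WT oocytes WT2 was lowest in both. No source used here says that counting was by strand, so reads of the shared stretch cannot be told apart. With Cd164l2 so much more abundant, the limit bears on the whole Gpr3 level and its difference between genotypes. What part of either came from that stretch was not tested. No other gene's exons overlap those of Gpr12.

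**Figure D1:**
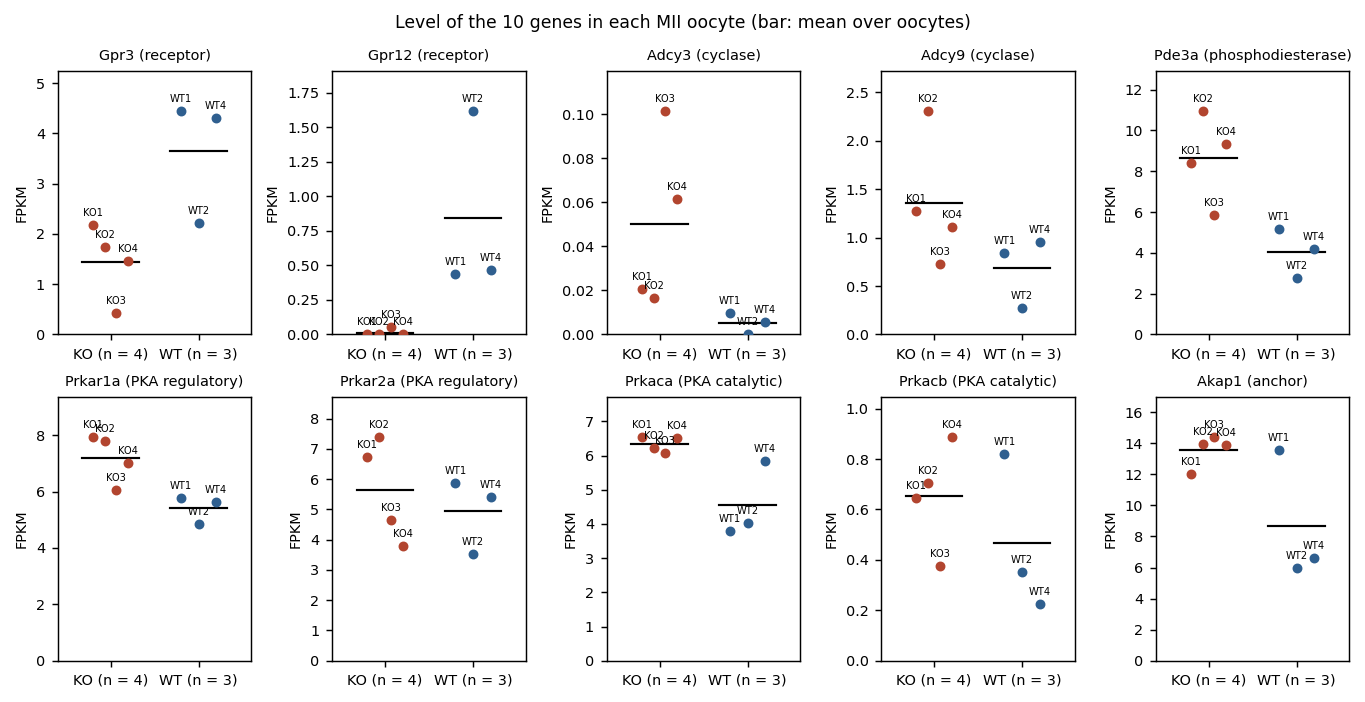
FPKM of each of the 10 genes (y axes, linear, each with its own scale from 0) in the 4 KO and 3 WT oocytes, with a point per oocyte and a bar at the mean. Gpr3 and Gpr12 have every KO point below every WT point, and Pde3a, Prkar1a, Prkaca and Adcy3 have every KO point above.

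Of the cyclase pair, Adcy9, an adenylyl cyclase of the plasma membrane, was by far the more abundant. Adcy9 (ENSMUSG00000005580) was at 1.28, 2.31, 0.730 and 1.11 FPKM in KO1 to KO4, against 0.840, 0.270 and 0.950 FPKM in WT1, WT2 and WT4. The groups overlapped through KO3, and the means of 1.36 ± 0.675 FPKM in KO and 0.687 ± 0.365 FPKM in WT oocytes gave a difference of 0.47 on the log2(FPKM + 1) scale. The means were 1.98-fold apart, from 1518 and 473 reads, and at such low levels the added 1 shrinks the log2 difference. Adcy9 reached 1 FPKM in 3 KO oocytes and in no WT oocyte, so it is above the filter through the KO libraries alone.

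Adcy3 (ENSMUSG00000020654), the cyclase known from mice to contribute to the arrest, was close to the detection limit. It had 4, 4, 32 and 16 reads in KO1 to KO4, against 2, 0 and 1 read in WT1, WT2 and WT4, with all levels at or below 0.102 FPKM. Every KO value lay above every WT value, and the rate was 11.7 times as high in KO (exact 95% interval 3.79 to 58.2, counting error only). Exons of Cenpo, on the opposite strand, cover 22.1% of the exonic bases of Adcy3, and Cenpo was at 2.67 to 3.54 FPKM in KO and 3.18 to 4.24 FPKM in WT oocytes. With so few reads, the origin of the Adcy3 signal cannot be told apart. The share of Adcy9 in the summed FPKM of the pair was 95.1% ± 5.23 in KO oocytes, against 99.4% ± 0.573 in WT oocytes, with overlap.

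Pde3a (ENSMUSG00000041741), the phosphodiesterase without which mouse oocytes stay arrested, was higher in every KO oocyte than in any WT oocyte. It was at 8.40, 11.0, 5.86 and 9.34 FPKM in KO1 to KO4, against 5.18, 2.77 and 4.20 FPKM in WT1, WT2 and WT4. KO3 was the lowest KO oocyte and WT1 the highest WT oocyte, and the gap between them was small. The means were 8.64 ± 2.13 FPKM in KO and 4.05 ± 1.21 FPKM in WT oocytes, 2.13-fold apart, from 4436 and 1300 reads. The difference of 0.93 on the log2(FPKM + 1) scale was past the difference of 90.5% of the 8033 genes above the filter. Pde3b, the relative of Pde3a, was at 12.2 ± 1.53 FPKM in KO and 10.8 ± 6.31 FPKM in WT oocytes, with WT1 above every KO oocyte. Pde3a made up 41.1% ± 6.71 of the summed FPKM of this pair in KO and 29.1% ± 7.79 in WT oocytes, with overlap.

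Of the regulatory subunits of PKA, Prkar1a (ENSMUSG00000020612), the type I subunit, had every KO oocyte above every WT oocyte by a small margin. It was at 7.93, 7.79, 6.04 and 7.02 FPKM in KO1 to KO4, against 5.77, 4.85 and 5.63 FPKM in WT1, WT2 and WT4. Prkar2a (ENSMUSG00000032601), the type II subunit, was at 6.72, 7.39, 4.66 and 3.80 FPKM in KO1 to KO4, against 5.87, 3.53 and 5.42 FPKM in WT1, WT2 and WT4. The Prkar2a groups overlapped in part, with KO1 and KO2 above every WT oocyte and WT2 below every KO oocyte. The differences were 0.35 for Prkar1a and 0.15 for Prkar2a on the log2(FPKM + 1) scale. Prkar2b, a type II subunit outside the 10 genes, was the most abundant regulatory transcript by mean, with 12.9 ± 4.89 FPKM in KO and 12.2 ± 4.65 FPKM in WT oocytes.

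Of the catalytic subunits, Prkaca (ENSMUSG00000005469) was higher in every KO oocyte than in any WT oocyte. It was at 6.54, 6.23, 6.09 and 6.51 FPKM in KO1 to KO4, against 3.79, 4.02 and 5.85 FPKM in WT1, WT2 and WT4. The KO oocytes lay within a narrow band, at 6.34 ± 0.219 FPKM, and the WT oocytes at 4.55 ± 1.13 FPKM, with WT4 near the KO band. Prkacb (ENSMUSG00000005034) was below 1 FPKM in every oocyte, at 0.374 to 0.887 FPKM in KO and 0.226 to 0.819 FPKM in WT oocytes. Prkaca was 90.8% ± 2.60 of the summed FPKM of the pair in KO and 90.1% ± 7.21 in WT oocytes. The differences were 0.42 for Prkaca and 0.18 for Prkacb on the log2(FPKM + 1) scale. The sum of the catalytic transcripts over that of Prkar1a and Prkar2a was 0.559 ± 0.104 in KO and 0.489 ± 0.0825 in WT oocytes, with overlap. With Prkar2b among the regulatory transcripts it was 0.275 ± 0.0363 in KO and 0.226 ± 0.0547 in WT oocytes, also with overlap.

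Akap1 (ENSMUSG00000018428), which tethers PKA to the outer membrane of mitochondria, was the most abundant of the 10 transcripts in both genotypes. It was at 12.0, 13.9, 14.4 and 13.9 FPKM in KO1 to KO4, against 13.5, 5.98 and 6.60 FPKM in WT1, WT2 and WT4. WT1 lay inside the KO range and the other WT oocytes far below it. The means of 13.6 ± 1.04 FPKM in KO and 8.71 ± 4.20 FPKM in WT oocytes gave a difference of 0.66 on the log2(FPKM + 1) scale. It was 1.00 without WT1, 0.47 without WT2 and 0.53 without WT4, the last pair within 1.5-fold.

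The filter kept a gene that reached 1 FPKM in 3 or more libraries, which left a background of 8033 genes, and 7 of the 10 genes were among them (not Gpr12, Adcy3 and Prkacb). Of the 10 genes, 2 were over 1.5-fold lower in KO on the log2(FPKM + 1) scale, Gpr3 and Gpr12, and 7.92% of the background was. Another 2 were over 1.5-fold higher, Pde3a and Akap1, against 22.6% of the background, a share close to theirs. Every KO oocyte was below every WT oocyte in 2 of the 10 genes, against 8.94% of the background, and above in 4, against 18.9%. Both counts of lower genes include Gpr12, and the count of genes above includes Adcy3, which are outside this background. Among the 18300 genes with a value in at least 1 library, 4.05% were over 1.5-fold lower and 11.4% over 1.5-fold higher, and the oocytes did not overlap for 4.92% with KO below and 11.9% with KO above.

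The higher values have to be read against a shift of all genes. The median difference over the background was 0.18 on the log2(FPKM + 1) scale, and 0.23 for its genes at a mean of 3 to 10 FPKM, where Pde3a, Prkar1a, Prkar2a and Prkaca lie. It was -0.01 after median-ratio scaling, which gave 0.73 for Pde3a, 0.14 for Prkar1a, 0.22 for Prkaca, 0.45 for Akap1 and -0.06 for Prkar2a. Under that scaling Prkar1a and Prkaca overlapped between genotypes, Akap1 was within 1.5-fold, and Prkar2a changed sign. Gpr3 was at -1.12 and Gpr12 at -0.88, further below zero than in the deposited values.

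**Figure D2:**
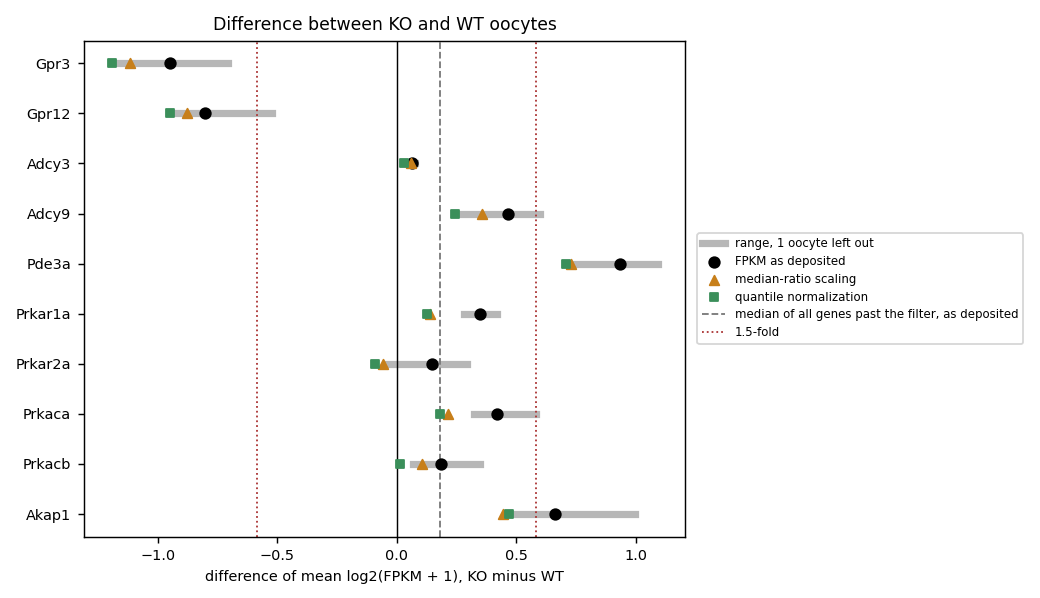
KO mean minus WT mean of log2(FPKM + 1) (x axis) for each of the 10 genes, as deposited (black points), after median-ratio scaling (triangles) and after quantile normalization (squares), with grey bars for the range when 1 oocyte is left out. Gpr3 and Gpr12 lie left of zero and Pde3a past the 1.5-fold line on the right under all 3 scalings, while Prkar2a lies on both sides of zero.

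Ratios between transcripts of the same oocyte do not move when a library is scaled by a single factor, as in median-ratio scaling. Quantile normalization can move them and was not applied to them. The pairs below were chosen after values had been seen. Pde3a over Gpr3, the degrading enzyme over the receptor, was 3.84, 6.33, 13.9 and 6.40 in KO1 to KO4, against 1.16, 1.25 and 0.974 in WT1, WT2 and WT4. Pde3a was higher and Gpr3 lower in every KO oocyte, so this ratio had to be higher in every KO oocyte than in any WT oocyte. It adds no separate result, and it was highest in KO3. Its absolute size depends on gene length, since the lengths implied by the deposited values were 0.367 (Pde3a) and 1.32 (Gpr3) times those of the reference annotation. On reference lengths, an alternative added after seeing the data, the ratio was 1.07 to 3.88 in KO and 0.272 to 0.349 in WT oocytes, and the log2 difference between genotypes does not depend on length. The mean log2 ratio was 2.77 ± 0.767 in KO and 0.17 ± 0.186 in WT oocytes, and the difference of 2.60 stayed within 2.26 to 2.88 when 1 oocyte was left out. Gpr3 over Adcy9 was 1.71, 0.750, 0.577 and 1.31 in KO1 to KO4, against 5.29, 8.19 and 4.54 in WT1, WT2 and WT4. Both ratios hold Gpr3 and thus share its reads, with the limit set by Cd164l2.

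**Figure D3:**
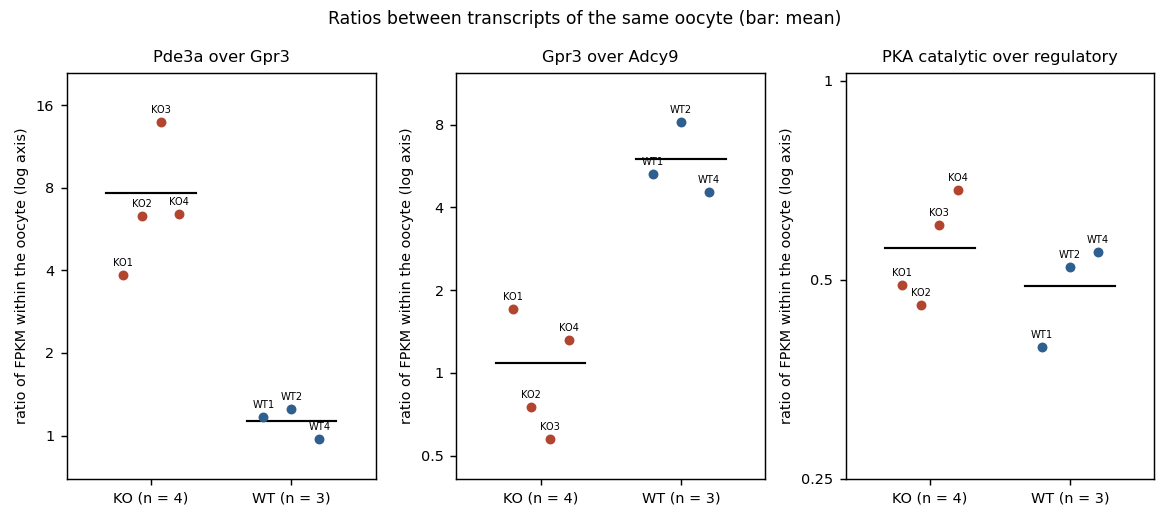
Ratios of FPKM within each oocyte (y axes, log scale), for Pde3a over Gpr3, Gpr3 over Adcy9, and the sum of Prkaca and Prkacb over the sum of Prkar1a and Prkar2a (Prkar2b not included), with a point per oocyte and a bar at the arithmetic mean. The KO and WT points are apart for the ratios with Gpr3 and overlap for the PKA subunits, at 0.457 to 0.684 in KO and 0.396 to 0.550 in WT oocytes. For Pde3a over Gpr3 the separation follows from that of the single genes.

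By deposited FPKM, Pde3a and Gpr12 held different places among the 10 genes in KO and WT oocytes. In KO oocytes the order by mean was Akap1, Pde3a, Prkar1a, Prkaca, Prkar2a, Gpr3, Adcy9, Prkacb, Adcy3 and Gpr12. In WT oocytes it was Akap1, Prkar1a, Prkar2a, Prkaca, Pde3a, Gpr3, Gpr12, Adcy9, Prkacb and Adcy3. Ranges did not touch between Akap1 and the next gene, between Prkar2a and Gpr3 in KO oocytes, between Gpr3 and Gpr12 in WT oocytes, and between Prkacb and Adcy3. The other neighbours in each order overlapped. The order changed on reference lengths, where Akap1, Prkar1a and Prkaca came first in both genotypes and Pde3a was at rank 5 in KO and rank 6 in WT oocytes, below Prkar2a in KO and below Gpr3 in WT. Within genotypes, KO3 was the lowest KO oocyte in 6 of the 10 genes and WT2 the lowest WT oocyte in 7.

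Genes elsewhere in the table had profiles close to those of Gpr3 and Pde3a. Likeness was the root-mean-square difference of log2(FPKM + 1), centred per gene, over the 7 oocytes and 7128 genes. Nearest to Gpr3 were Tfap2b (0.17), which encodes a transcription factor, Ccnc (0.18), which encodes cyclin C, and Fam84a (0.22), against a median of 0.73 over all genes compared. Nearest to Pde3a were Armc1 (0.10), Mrpl41 (0.10), of the mitochondrial ribosome, and Add3 (0.11), an adducin of the membrane skeleton, against a median of 0.54. These genes were picked as the closest of 7128.

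Other genes of the pathway, in 8 lists by role, were measured for 99 of 100 symbols, and 38 were above the filter. Of these, 7 were over 1.5-fold higher in KO and 2 lower, with a median difference of 0.10, against 22.6% and 7.92% of the background and its median of 0.18. After median-ratio scaling 4 were higher and 6 lower. Among 9 G protein genes and regulators above the filter, 1 was higher and 1 lower. Gnai2, of an inhibitory G protein, was at 14.1 ± 4.57 FPKM in KO and 7.60 ± 2.02 FPKM in WT oocytes, and Gnb5, a G protein beta subunit, was at 1.36 ± 1.10 FPKM in KO and 2.83 ± 0.649 FPKM in WT oocytes, both with overlap. Gnai2 was within 1.5-fold after median-ratio scaling, Gnb5 without KO4, and both with a pseudocount of 5. Gnas, which encodes the stimulatory G protein of these receptors, was at or below 0.0518 FPKM in every oocyte, and 22.0% of its exonic bases lie under exons of other genes.

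Further down the pathway, the larger differences were in single genes. Of the other cyclases only Adcy8 was above the filter, at 1.51 ± 0.972 FPKM in KO and 1.51 ± 0.868 FPKM in WT oocytes. The other phosphodiesterases held 3 genes above the filter, none past 1.5-fold, among them Pde8a at 10.9 ± 2.11 FPKM in KO and 9.68 ± 3.98 FPKM in WT oocytes. With no filter, 1 gene of that list was over 1.5-fold higher and 0 lower. This was Pde10a, at 0.986 ± 0.301 FPKM in KO and 0.160 ± 0.0956 FPKM in WT oocytes, without overlap. Prkx, a kinase related to the catalytic subunits, was at 2.53 ± 1.28 FPKM in KO and 0.992 ± 0.0935 FPKM in WT oocytes, with KO4 inside the WT range. Of 8 other anchoring proteins, Akap9 was over 1.5-fold higher (6.69 ± 1.55 FPKM in KO and 3.95 ± 0.365 FPKM in WT oocytes, no overlap) and Akap8l over 1.5-fold lower (2.84 ± 1.82 FPKM in KO and 5.20 ± 1.09 FPKM in WT oocytes, with overlap). Akap9 was within 1.5-fold after median-ratio scaling or quantile normalization, with a pseudocount of 5, and without KO4 or WT2. Akap8l was within 1.5-fold with a pseudocount of 5 and without KO1, which was at 0.445 FPKM. Of 2 cAMP effectors above the filter, Atf1, a factor that binds the CRE, was at 14.2 ± 3.69 FPKM in KO and 7.89 ± 1.96 FPKM in WT oocytes without overlap, and Crebbp, a coactivator, at 23.2 ± 1.61 FPKM in KO and 20.3 ± 3.09 FPKM in WT oocytes with overlap. Atf1 was within 1.5-fold after either scaling, Prkx after quantile normalization, and both with a pseudocount of 5.

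Cell-cycle genes downstream of PKA were measured above the filter for 11 of 12. Wee1, a kinase that inhibits CDK1, and Cdc25a, a phosphatase that activates it, were over 1.5-fold higher in KO. These were 2 of 11 against 22.6% of the background, with 1 of 11 after quantile normalization and 0 with a pseudocount of 5. None of the 11 was lower by that much, though 2 were after median-ratio scaling. Wee1 was at 2.07 ± 0.833 FPKM in KO and 0.245 ± 0.401 FPKM in WT oocytes, without overlap, and it is above the filter through KO oocytes alone. Cdc25a was at 4.50 ± 0.596 FPKM in KO and 2.18 ± 0.894 FPKM in WT oocytes, without overlap. Wee2, the oocyte form through which PKA is known to act at arrest, was at 182 ± 14.3 FPKM in KO and 169.5 ± 11.0 FPKM in WT oocytes. Of the cGMP arm and gap junctions, 2 of 10 genes were above the filter. Prkg1, a kinase that cGMP activates, was at 10.4 ± 3.58 FPKM in KO and 4.86 ± 0.992 FPKM in WT oocytes without overlap, and Gja4, the connexin of the oocyte side, at 15.1 ± 5.47 FPKM in KO and 12.2 ± 8.32 FPKM in WT oocytes with overlap. Fshr, a Gs-coupled receptor of granulosa cells, was listed at 0 in KO1 and in the WT oocytes and at 2.99 to 4.51 FPKM in the other KO oocytes, while Npr2 and Gja1 of those cells were listed at 0 in all 7.

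**Figure D4:**
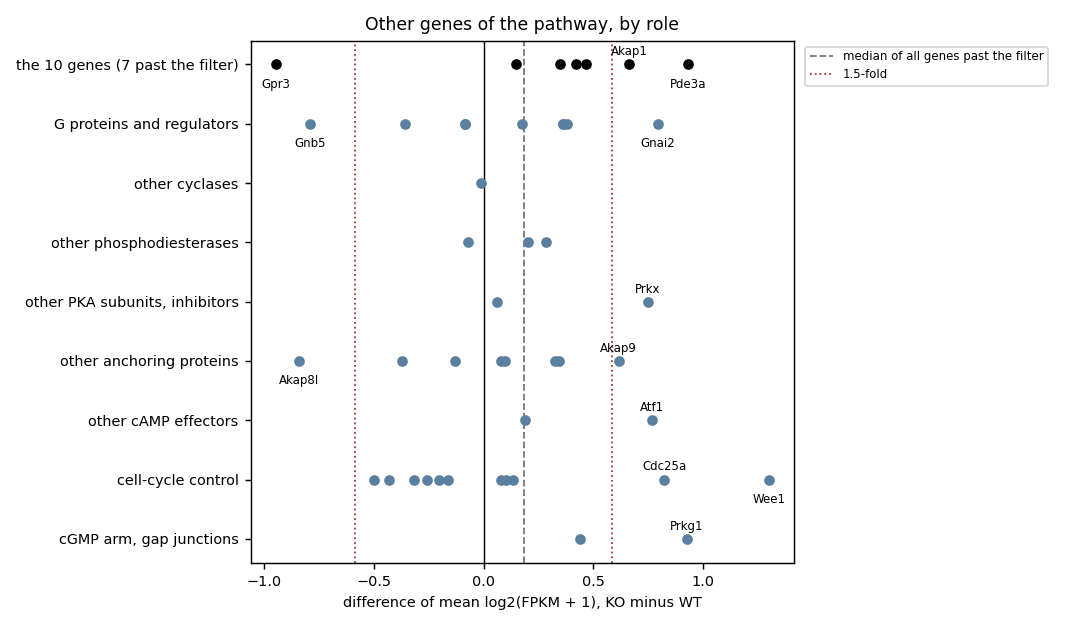
KO mean minus WT mean of log2(FPKM + 1) (x axis) for the genes above the filter of the 10 genes (top row, 7 points) and of 8 lists of other pathway genes by role, with a point per gene and names for those over 1.5-fold apart. The named genes are Gpr3, Gnb5 and Akap8l on the lower side, with 9 others on the higher side, and the dashed line is the median of all genes above the filter at 0.18.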

How the data were processed

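The authors deposited FPKM for 37620 Ensembl genes in 7 single oocytes, unlogged. Per the labels' protocols, cDNA was made and amplified on each oocyte, with spike-in RNA (no spike-in value was used here). The submitters' processing notes list Bowtie 0.12.8, TopHat2 2.0.2, HTSeq, edgeR 3.1.10 and mm9 without their roles. Symbols came from a GRCm38 annotation and named 97.4% of the 8033 genes past the filter (1 FPKM or more in 3 or more libraries). Reads were recovered as the smallest whole numbers that give the values, within 0.01, for all 18300 genes with a value. On simulated FPKM, 98.9% of 2652 genes came back exactly. Implied gene lengths were within about 20% of the reference for 43.6% of 12123 genes, so a missed common factor cannot be told apart from another gene model. Intervals cover counting error only, since amplified reads are not independent molecules.

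Differences are KO minus WT means of log2(FPKM + 1). The 10 genes, the lists and the rules were chosen with earlier results of these data known. Named genes are those 10, Hira, the 2 genes past the filter with the largest absolute difference per list, and the 3 profiles nearest to Gpr3 and to Pde3a. Wee2, Gnas, Gpr6, Cd164l2, Cenpo, Npr2, Pde10a, Kitl, Oosp1, Gdf9, Mos, Ooep, Kit and the markers listed at 0 were named outside this rule, after values were seen. Alternatives were pseudocounts of 0.1 and 5, median-ratio scaling, quantile normalization, no filter, a filter at FPKM 10, reference gene lengths, and leaving out each oocyte. Python 3.11.15, numpy 2.4.6 and scipy 1.17.1 were used.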

Additional observations from a re-analysis of the deposited data

Results flagged for a closer look

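Among 20 sets of 4 KO values checked (the 10 genes and 10 ratios or shares), 2 were flagged for an oocyte apart from the other KO oocytes. In both, the other KO oocytes were tied at 0 or at 100%, so any other value is flagged. The usual rate of about 1 flag in 20 sets thus does not apply to them. Both come from the same reads. Gpr12 was at 0.0518 FPKM in KO3 and listed at 0 in the other KO oocytes, from 4 reads. The share of Gpr3 in the summed receptor FPKM was therefore 89.0% in KO3 and 100% in the other KO oocytes, against 57.7% to 91.0% in WT oocytes. KO3 was the library with most reads. For the KO oocytes listed at 0 in Gpr12, a count of 0 allows up to 0.0629 FPKM in KO1, 0.0511 in KO2 and 0.0470 in KO4. KO3 is thus not shown to lie apart from KO1, and it was only slightly above the limits of KO2 and KO4, on 4 reads.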

How the results depend on the processing

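No paired analysis was possible because the results come from no test and the labels give no animal that ties a KO to a WT oocyte. Leaving out 1 oocyte kept the difference of 9 of the 10 genes on its side of zero, and Prkar2a ranged from -0.04 to 0.29. Gpr3 ranged from -1.20 to -0.71, Gpr12 from -0.95 to -0.52 and Pde3a from 0.74 to 1.09. The 2 genes over 1.5-fold higher became 1 with median-ratio scaling, with quantile normalization and with a pseudocount of 5 (Pde3a), and 1 to 3 when an oocyte was left out. A pseudocount of 0.1 gave 3, adding Adcy9 at 0.92, and leaving out KO3 added Adcy9 too. The 2 over 1.5-fold lower became 0 with a pseudocount of 5, which gave -0.42 for Gpr3 and -0.21 for Gpr12, and 1 to 2 when an oocyte was left out (Gpr12 lost without WT2). Genes with every KO oocyte above every WT oocyte numbered 4 as deposited, 2 with median-ratio scaling (Adcy3 and Pde3a) and 1 with quantile normalization (Pde3a), and ranged from 4 to 6 when an oocyte was left out. Those below stayed at 2 in all of these. Of the pathway lists, the 7 higher genes became 4, 3, 1 and 2 with median-ratio scaling, quantile normalization, a pseudocount of 5 and a filter at FPKM 10, and the 2 lower became 6 with median-ratio scaling and 0 with a pseudocount of 5 or a filter at FPKM 10. The higher genes numbered 8 with a pseudocount of 0.1 and 9 with no filter, and the lower stayed at 2 in both. Leaving out an oocyte gave 6 to 11 higher, 11 without WT1, and 1 to 3 lower, 1 without KO1 or KO4. A larger pseudocount shrinks low genes and a higher filter leaves fewer genes; the cause of the other moves was not tested. The shares within a class stayed within the spread between oocytes when an oocyte was left out or reads replaced FPKM. Still, the difference in the Prkaca share, 0.62 points, changed sign without WT1 (-3.35), without KO3 (-0.53) and by reads (-0.16). That in the Gpr3 share fell from 17.6 to 6.63 points without WT2. Depth limits Adcy3 and Gpr12, at 0 to 32 and 0 to 96 reads per oocyte.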
